A study of Rattus norvegicus with 16 samples.

Results

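The enzymes that turn acetyl units into cholesterol were followed in the liver of rats given 1 of 3 dithiolethiones. The set was chosen by name and pathway order: Hmgcs1, Idi1, Fdps, Fdft1, Sqle, Lss, Cyp51, Msmo1 and Ebp, 9 genes in all. In the annotation of the array, 8 of the 9 carried a probe set, and Hmgcs1 was not analysed here. These 8 genes had 21 of the 8740 probe sets on the array. Tests covered the probe sets whose value exceeded the 40th percentile of its own array on 4 or more arrays of 16, namely 20 of the 21 and 5323 of all 8740. The untested probe set was U31352_at of Lss, which was dim in all groups.

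The animals were 16 male Fischer F344 rats, 80 to 100 g and 6 weeks of age when they arrived, kept 1 to a cage on AIN 76A chow and allotted at random to groups of 4. All groups were gavaged with 3 doses, 1 every second day within 5 days, and killed 24 h after the third dose. Controls received saturated sucrose, the vehicle, although their titles call them rats without treatment. The other groups received 0.3 mmol/kg of D3T, oltipraz (OLT) or TBD. D3T is the bare dithiolethione ring, OLT bears methyl and pyrazinyl substituents, and TBD bears a tert-butyl substituent. Whole liver RNA was measured, 1 animal per array, so the spread between arrays combines animal and technical spread. Values are the authors' log2 GCRMA values, and a step of 1 is a 2-fold step.

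Cholesterol is built from acetyl-CoA through mevalonate and isoprenoid units, which are joined to squalene, closed into the ring of lanosterol and trimmed to cholesterol. The liver is a main site of this synthesis. Sterol-regulated transcription factors of the SREBP family drive the enzyme genes together when membrane sterol is low, and INSIG proteins hold these factors in the endoplasmic reticulum when sterol is plentiful. SREBP acts on promoters together with the general factors NF-Y, which binds CCAAT, and Sp1, which binds GC boxes. Dithiolethiones are known as activators of NRF2, which binds antioxidant response elements.

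Hepatocyte markers were high on all arrays, with a mean of 13.1 to 13.5 over 8 tested genes on each array. Of these 8, 2 were higher and 2 lower with D3T, and 1 was lower with OLT and with TBD. Among all 3104 genes tested, 13.1% were lower and 4.61% higher with D3T, 8.92% and 2.61% with OLT, and 10.0% and 2.8% with TBD. These shares also apply to the marker counts that follow. Array medians ran from 3.27 to 3.58, and replicates within a group had a pairwise r between 0.983 and 0.997 over all 8740 probe sets, which are not independent replicates. OLT replicate 1 and TBD replicate 4 stood apart from the other arrays on the second principal component. Markers of Kupffer cells, the resident macrophages, were lower with each compound: 4 of 6 tested genes passed with D3T, with OLT and with TBD. The mean of the 6 was 7.15 to 7.52 on vehicle arrays, 6.42 to 6.56 with D3T, 6.14 to 6.66 with OLT and 6.28 to 6.61 with TBD. Of 4 tested endothelial markers, 1 passed: Lyve1, of sinusoidal endothelium, was lower with D3T (-1.92 ± 0.31, adjusted p = 0.000747) and with TBD (-1.21, adjusted p = 0.0172), and was -0.76 with OLT (adjusted p = 0.139). With TBD it did not pass without TBD replicate 1 or vehicle replicate 2 or 4 (adjusted p of 0.0545 to 0.0601). The endothelial markers Pecam1 and Vwf and the lymphocyte marker Cd2 lay below the array median on all 16 arrays. Of the tested markers of stellate cells, 2 of 6 were lower with D3T, 1 was lower and 1 higher with OLT, and 2 were lower with TBD. The part of these cell types in the results below was not tested. In whole tissue, fewer cells of a type and less RNA per cell cannot be told apart.

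Promoters are shown because the enzymes are known to share control by sterols and most of them were lower with D3T. The table of promoters from RefSeq, build GRCr8, held Hmgcs1 and 6 of the 8 measured genes, Sqle and Fdft1 having no entry. Of these 6, the 5 printed are those with at least 2 CCAAT boxes and Cyp51, which has none. Each line gives the 180 bases before the annotated gene start, 5′ to 3′ in the direction of the gene, with CCAAT or its reverse complement ATTGG in capitals. Idi1 lies at chr17:66547525-66547704 on the minus strand. Fdps lies at chr2:176804817-176804996 on the minus strand. Cyp51 lies at chr4:30991513-30991692 on the plus strand. Msmo1 lies at chr16:29746933-29747112 on the plus strand. Ebp lies at chrX:16971282-16971461 on the plus strand.
Idi1: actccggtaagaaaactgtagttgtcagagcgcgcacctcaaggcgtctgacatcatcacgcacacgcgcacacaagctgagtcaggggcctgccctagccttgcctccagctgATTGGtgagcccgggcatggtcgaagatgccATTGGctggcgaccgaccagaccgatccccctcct
Fdps: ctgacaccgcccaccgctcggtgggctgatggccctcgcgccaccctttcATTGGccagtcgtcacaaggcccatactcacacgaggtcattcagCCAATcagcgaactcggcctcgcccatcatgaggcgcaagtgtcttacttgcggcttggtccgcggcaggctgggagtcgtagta
Cyp51: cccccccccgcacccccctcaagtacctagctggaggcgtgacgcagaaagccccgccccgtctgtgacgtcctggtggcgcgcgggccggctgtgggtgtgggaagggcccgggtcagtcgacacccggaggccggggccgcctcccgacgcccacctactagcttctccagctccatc
Msmo1: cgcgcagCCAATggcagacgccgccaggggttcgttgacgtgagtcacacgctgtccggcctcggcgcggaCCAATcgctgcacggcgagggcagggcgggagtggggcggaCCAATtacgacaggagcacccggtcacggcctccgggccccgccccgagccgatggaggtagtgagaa
Ebp: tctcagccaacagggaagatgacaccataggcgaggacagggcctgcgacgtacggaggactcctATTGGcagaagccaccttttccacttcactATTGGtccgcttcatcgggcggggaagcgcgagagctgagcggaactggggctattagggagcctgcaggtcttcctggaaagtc

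Both strands of the 250 bases before the start were searched in all 33469 promoters of the table. CCAAT was present in 5 of the 6 promoters of measured enzymes, against 34.0% of all promoters. At least 2 copies were present in 4 of the 6, against 9.42% of all. Msmo1 had 3 copies, at 173, 109 and 68 bases before the start, and Fdps had 2, at 130 and 85 bases on opposite strands. The GC box GGGCGG was present in 5 of the 6, against 30.5% of all, and absent from that of Idi1. The sterol element in the form TCACNCCAC was in 0 of the 6 and in 0.974% of all, and with 1 mismatch allowed it was in 4 of the 6 and in 19.97% of all. The core of the antioxidant response element, TGACNNNGC, was in 2 of the 6, Fdps and Idi1, against 10.1% of all. A match describes these letters only.

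With D3T, RNA was lower for most of the measured enzymes between Idi1 and Ebp. Each gene was read from its brightest tested probe set. At an adjusted p under 0.05, 7 of the 8 genes were lower with D3T and 0 were higher, against 13.1% lower and 4.61% higher among all 3104 genes tested. The exception was Fdft1, whose brightest probe set lay at its vehicle level. The median of the 8 differences from vehicle was -1.24, beside 0.03 over all genes. Of the 20 tested probe sets, 13 were lower, against 12.2% of all probe sets. All 7 genes stayed called whichever single array was left out.

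Fewer enzymes passed with OLT and TBD than with D3T, which is a count of calls and no test of the difference between compounds. With OLT, 3 genes were lower (Sqle, Lss and Ebp) and 1 higher (Fdft1), against 8.92% lower and 2.61% higher among all genes. With TBD, 4 genes were lower (Idi1, Sqle, Lss and Ebp) and Fdft1 again was higher, against 10.0% lower and 2.8% higher. The median difference was -0.76 with OLT and -0.63 with TBD, beside medians of -0.03 and -0.02 over all genes. Of 20 probe sets, 3 were lower with OLT against 7.89% of all, and 4 with TBD against 9.47% of all. All 3 compounds are set against the same 4 vehicle arrays, so their differences are not independent. Without OLT replicate 1 and TBD replicate 4, the counts lower were 7 with D3T, 4 with OLT and 3 with TBD.

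**Figure D1:**
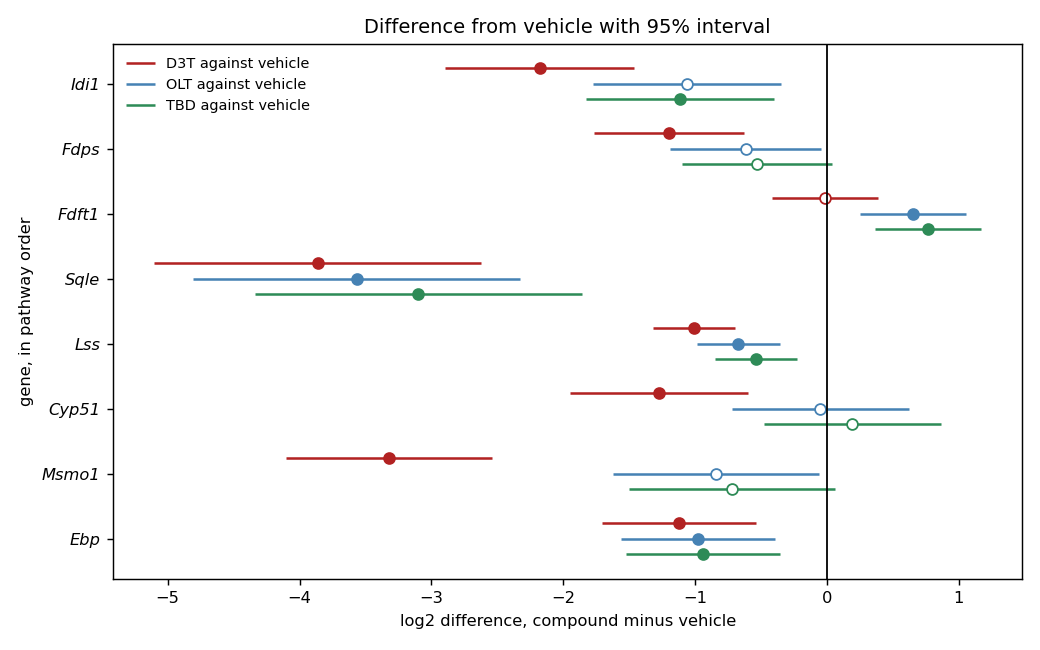
Log2 difference from vehicle (x axis, compound minus vehicle) for the brightest probe set of each of the 8 enzymes (y axis, in pathway order), 4 arrays per group. Points are limma estimates, bars 95% intervals, and filled points passed an adjusted p under 0.05. D3T points are filled in 7 of 8 genes, and Fdft1 lies to the right of 0 with OLT and TBD.

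The share of higher calls among all probe sets depended on the scaling. With D3T it was 33.5% as deposited, 52.9% after a further quantile normalization and 43.8% with array medians centred. With OLT it was 30.0%, 46.5% and 41.8%, and with TBD 27.3%, 44.9% and 33.6%. The count of 7 enzymes lower with D3T was the same under both rescalings. The count with TBD fell from 4 to 2 after quantile normalization and to 1 after centring.

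The first enzymes of the set make and join isoprenoid units. Idi1 encodes the isomerase that interconverts the basic isoprenoid units. Its log2 values were 7.56, 8.54, 7.60 and 7.85 on the vehicle arrays (mean 7.89 ± 0.45, SD, n = 4) and 5.96, 5.47, 5.95 and 5.46 with D3T (5.71 ± 0.28). With OLT they were 6.99, 6.43, 6.41 and 7.47, and with TBD 6.04, 6.38, 7.03 and 7.64. All D3T and OLT arrays lay below all vehicle arrays, whereas TBD replicate 4 reached into the vehicle range. The D3T difference was -2.18 ± 0.33 (SE), a 4.53-fold lower value (limma, adjusted p = 0.000549). TBD gave -1.12 ± 0.33 (adjusted p = 0.0406), and OLT gave -1.06 with a 95% interval of -1.78 to -0.35 (adjusted p = 0.0545). The OLT difference passed without OLT replicate 4 (-1.28, adjusted p = 0.0325). The TBD call was lost without TBD replicate 1, 2 or 3 or vehicle replicate 2 or 4, with adjusted p of 0.122, 0.115, 0.0545, 0.135 and 0.0779. The other probe set of Idi1, rc_AI045395_at, was dim, with group means of 3.09 to 3.20, and passed with no compound.

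Fdps makes farnesyl diphosphate, the branch point between sterols and other isoprenoids. On M89945mRNA_g_at the vehicle arrays read 11.44, 11.23, 11.16 and 11.49 (11.33 ± 0.16) and the D3T arrays 10.68, 9.86, 9.94 and 10.04 (10.13 ± 0.37). OLT arrays read 10.73, 10.63, 10.08 and 11.40, and TBD arrays 10.89, 10.44, 11.40 and 10.47. The D3T arrays were all below vehicle, and 1 array each of OLT and TBD lay within the vehicle range. D3T lowered Fdps by 2.29-fold (-1.20 ± 0.27, adjusted p = 0.00641). The differences with OLT, -0.62 (95% interval -1.19 to -0.04, adjusted p = 0.175), and TBD, -0.53 (-1.10 to 0.04, adjusted p = 0.249), did not pass. A further probe set, rc_AI180442_at, gave -2.24 ± 0.40 with D3T (adjusted p = 0.00156), and M89945mRNA_at gave -0.72 (adjusted p = 0.0526).

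Fdft1, squalene synthase, commits farnesyl diphosphate to sterols, and its 4 probe sets disagreed. On the brightest, M95591_at, vehicle arrays read 8.90, 8.57, 8.43 and 8.34 (8.56 ± 0.24) and D3T arrays 8.74, 8.58, 8.40 and 8.47 (8.55 ± 0.15). OLT arrays read 9.19, 9.06, 8.77 and 9.82 (9.21 ± 0.44), and TBD arrays 9.49, 9.11, 9.49 and 9.22 (9.33 ± 0.19). TBD arrays were all above vehicle, OLT overlapped vehicle, and D3T lay within the vehicle range. This gave a rise of 1.7-fold with TBD (0.77 ± 0.19, adjusted p = 0.0144) and of 1.57-fold with OLT (0.65 ± 0.19, adjusted p = 0.0366), and a D3T difference of -0.01 (95% interval -0.41 to 0.39, adjusted p = 0.975). The D3T difference turned to 0.22 after a further quantile normalization.

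No rise passed on the other 3 probe sets of Fdft1. On rc_H33426_at and rc_H33426_g_at D3T gave -1.29 ± 0.31 and -1.29 ± 0.26 (adjusted p = 0.0105 and 0.0032). OLT gave -0.19 and -0.55 there, and TBD -0.10 and -0.61, none of which passed. On M95591_g_at the differences were -0.68 with D3T, -0.03 with OLT and 0.27 with TBD, and none passed. With the mean of the 4 probe sets, D3T was lower (-0.82, adjusted p = 0.0373), OLT differed by -0.03 and TBD by 0.08. The OLT rise on M95591_at was also lost without OLT replicate 1, 2 or 4 or vehicle replicate 2, 3 or 4, with adjusted p of 0.0535 to 0.108. The calls of Fdft1 with OLT and TBD thus rest on M95591_at.

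**Figure D2:**
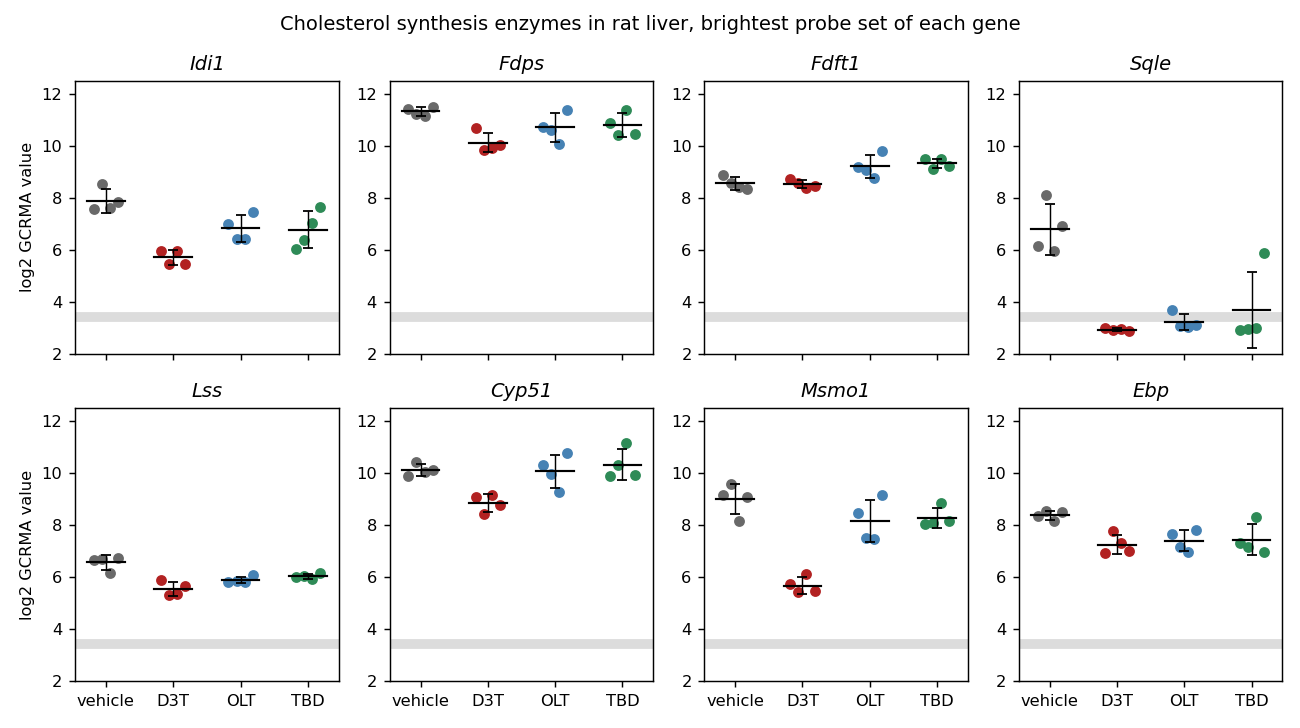
Log2 GCRMA value (y axis) of the brightest probe set of each enzyme on each array (points, in replicate order), by group (x axis). Lines are group means, error bars SD over 4 arrays, and the grey band spans the array medians, 3.27 to 3.58. Sqle lies at 2.86 to 3.69 on the compound arrays, near the band, apart from TBD replicate 4 at 5.90.

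Sqle, squalene epoxidase, inserts the first oxygen and is regarded as a rate-limiting step after mevalonate. Its single probe set, D37920_at, read 6.16, 8.10, 5.97 and 6.91 on vehicle arrays (6.79 ± 0.97) and 3.00, 2.90, 2.94 and 2.86 with D3T (2.92 ± 0.06). With OLT it read 3.69, 3.05, 3.02 and 3.12, and with TBD 2.90, 2.95, 3.00 and 5.90. All 12 compound arrays lay below all vehicle arrays. The value was below the array median on 4 of 4 D3T arrays, 3 of 4 OLT arrays and 3 of 4 TBD arrays, so no fold is given. The compound values near the floor are limits rather than levels, so the measured differences depend on where GCRMA sets that floor. They were -3.86 ± 0.58 with D3T (adjusted p = 0.000478), -3.57 with OLT (adjusted p = 0.00165) and -3.10 with TBD (adjusted p = 0.00276). Sqle passed with each compound whichever single array was left out. Without TBD replicate 4 the TBD difference was -3.84.

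Lss, lanosterol synthase, closes the sterol ring. On D45252_s_at vehicle arrays read 6.65, 6.71, 6.14 and 6.74 (6.56 ± 0.28) and D3T arrays 5.88, 5.30, 5.36 and 5.66 (5.55 ± 0.27). OLT arrays read 5.82, 5.84, 5.82 and 6.08, and TBD arrays 5.99, 6.04, 5.92 and 6.15. D3T and OLT arrays were all below vehicle, and TBD replicate 4 lay just above vehicle replicate 3, the lowest control. The falls were 2.01-fold with D3T (-1.01 ± 0.15, adjusted p = 0.000362), -0.67 with OLT (adjusted p = 0.00844) and -0.54 with TBD (adjusted p = 0.0248). The OLT call was lost after a further quantile normalization (adjusted p = 0.0576), with array weights (adjusted p = 0.2) and with its probe sets averaged (adjusted p = 0.0755). The TBD call was lost without TBD replicate 1, 2 or 3 or vehicle replicate 1, 2 or 4, with adjusted p of 0.0543 to 0.0781. It shrank to -0.15 with array weights (adjusted p = 0.57), -0.25 after quantile normalization (adjusted p = 0.281) and -0.19 with its probe sets averaged (adjusted p = 0.157). The dimmer E12275cds_s_at stayed between group means of 4.38 and 4.54 and passed with no compound.

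Cyp51 encodes the cytochrome P450 that removes the first methyl group of lanosterol. On U17697_s_at vehicle arrays read 9.91, 10.43, 10.04 and 10.14 (10.13 ± 0.22) and D3T arrays 9.07, 8.41, 9.17 and 8.76 (8.85 ± 0.34). OLT arrays read 10.31, 9.98, 9.26 and 10.77, and TBD arrays 9.88, 10.32, 11.16 and 9.92. D3T arrays were all below vehicle, and OLT and TBD arrays spread to both sides of it. The D3T fall was 2.42-fold (-1.27 ± 0.31, adjusted p = 0.0114). OLT gave -0.05 (95% interval -0.72 to 0.62, adjusted p = 0.989), which turned to 0.04 after a further quantile normalization, and TBD gave 0.19 (-0.48 to 0.87, adjusted p = 0.94). Of the 4 other probe sets, AB004096_at (-1.82 ± 0.34, adjusted p = 0.00186) and rc_AA963449_s_at (-1.16, adjusted p = 0.048) were lower with D3T. The other pair, rc_AA997614_s_at and rc_AI230255_at, gave -0.50 and -0.01 and did not pass. With OLT and TBD none of these 4 probe sets passed, and they differed in size and sign. AB004096_at gave -0.46 with OLT and -0.41 with TBD, and rc_AA963449_s_at -0.74 and -0.56. In the same order, rc_AA997614_s_at gave 0.10 and -0.16, and rc_AI230255_at 0.25 and 0.65.

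Among the enzymes that trim lanosterol, Msmo1 showed the clearest separation of D3T from the other compounds. Msmo1, a methylsterol monooxygenase, starts the removal of methyl groups at the fourth ring carbon. On rc_AI172293_at vehicle arrays read 9.15, 9.56, 8.17 and 9.09 (8.99 ± 0.59) and D3T arrays 5.72, 5.42, 6.10 and 5.45 (5.67 ± 0.31). OLT arrays read 8.48, 7.50, 7.47 and 9.14 (8.15 ± 0.81), and TBD arrays 8.02, 8.07, 8.87 and 8.15 (8.28 ± 0.40). D3T arrays lay below every array of the other 3 groups, which overlapped each other. The D3T difference was -3.32 ± 0.37, or 10.0-fold lower (adjusted p = 4.99e-05). OLT gave -0.84 (95% interval -1.62 to -0.06, adjusted p = 0.174) and TBD -0.72 (-1.50 to 0.06, adjusted p = 0.252). Without OLT replicate 4 the OLT difference passed (-1.17, adjusted p = 0.0429). The second probe set, E12625cds_at, gave -2.83 with D3T (adjusted p = 0.000201), -0.63 with OLT and -1.12 with TBD.

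Ebp, the sterol isomerase that moves the ring double bond, was lower with all 3 compounds. Its single probe set, rc_H33491_at, read 8.33, 8.53, 8.16 and 8.49 on vehicle arrays (8.38 ± 0.17) and 6.93, 7.77, 7.31 and 6.99 with D3T (7.25 ± 0.38). OLT arrays read 7.66, 7.16, 6.97 and 7.80, and TBD arrays 7.31, 7.14, 8.31 and 6.98. D3T and OLT arrays lay below all vehicle arrays, and TBD replicate 3 lay among them. The differences were -1.12 ± 0.27 with D3T (2.18-fold, adjusted p = 0.0103), -0.98 with OLT (adjusted p = 0.0314) and -0.94 with TBD (adjusted p = 0.0347). The OLT call was lost without OLT replicate 2 or 3 or vehicle replicate 2 or 4 (adjusted p of 0.0784 to 0.0981), and with array medians centred (0.106). The TBD call was lost without TBD replicate 1, 2 or 4 or vehicle replicate 1, 2 or 4 (adjusted p of 0.056 to 0.1).

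**Figure D3:**
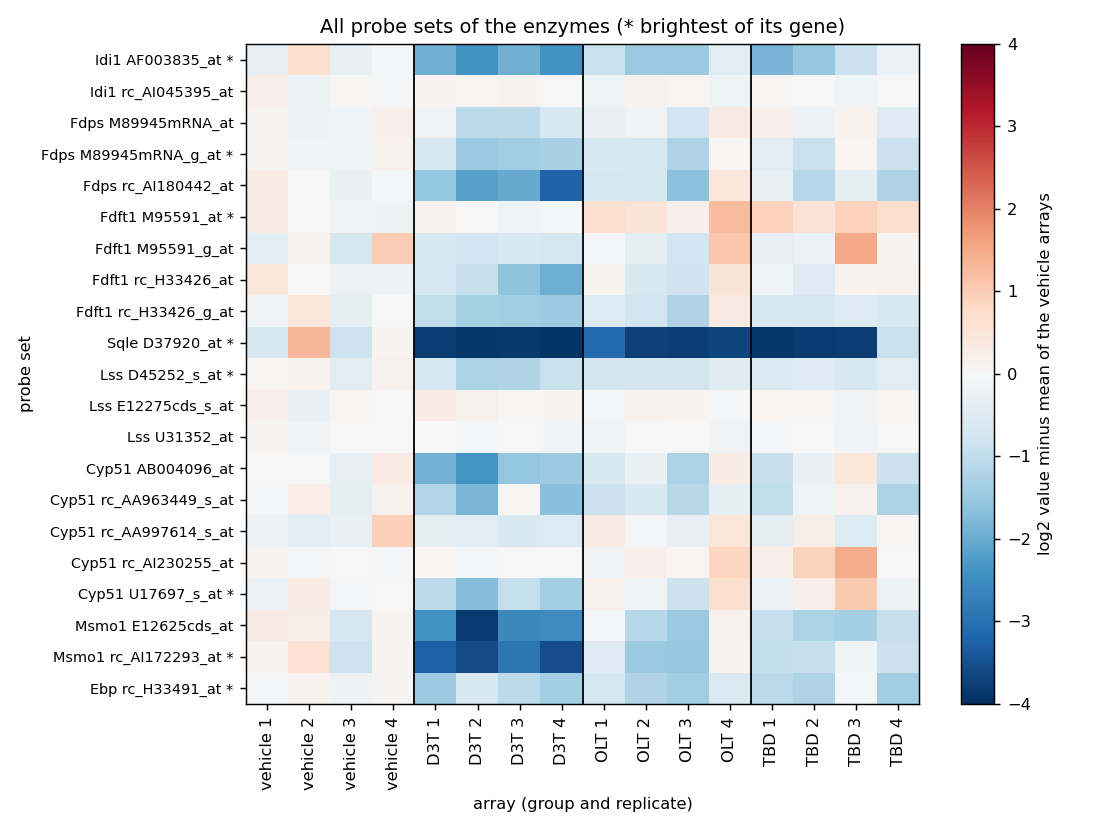
Log2 value minus the mean of the 4 vehicle arrays (colour) for all 21 probe sets of the enzymes (rows, in pathway order, the brightest of each gene starred) on 16 arrays (columns). Blue is lower: D3T columns are blue in 13 of 20 tested probe sets past the threshold, Sqle is dark in all 3 compound groups except TBD replicate 4, and M95591_at of Fdft1 is red with OLT and TBD.

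Set directly against each other at the same dose and time, D3T had a lower mean than OLT and TBD in the 7 genes other than Sqle. The share of all genes with this order was not computed. Sqle lay at the floor with D3T and on most arrays of the other compounds, so no order of the compounds can be read from it. In each comparison 1 gene passed, Msmo1, against 0.58% of all genes lower in D3T than in OLT and 0.387% lower in D3T than in TBD. Msmo1 was 5.58-fold lower with D3T than with OLT (-2.48 ± 0.37, 95% interval -3.26 to -1.70, adjusted p = 0.00309). It was 6.08-fold lower than with TBD (-2.60, interval -3.39 to -1.82, adjusted p = 0.00384). Its second probe set gave -2.20 against OLT (adjusted p = 0.00924) and -1.72 against TBD (adjusted p = 0.0553). The 3 pairs of compounds were each tested over all 5323 probe sets.

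Other enzymes differed between compounds by amounts that did not pass. The median over the 8 genes was -0.62 for D3T against OLT and -0.77 for D3T against TBD, with Sqle among the 8. Medians over all genes were not computed for these comparisons. At an unadjusted p under 0.05 there were 6 genes in each, against 5.57% of all genes lower with D3T than with OLT and 4.19% lower than with TBD. The groups did not overlap in 5 genes against OLT, Sqle among them, beside 4.19% of all genes, and in 5 against TBD, beside 2.35% of all genes. Cyp51 was -1.23 against OLT (adjusted p = 0.0942) and -1.47 against TBD (adjusted p = 0.05005, just above the threshold). It passed against OLT without OLT replicate 3 (-1.50, adjusted p = 0.0276) and against TBD without TBD replicate 1 (-1.61, adjusted p = 0.0483). These values are from U17697_s_at, and no other probe set of Cyp51 passed. AB004096_at gave -1.37 against OLT and -1.41 against TBD, and rc_AA963449_s_at -0.42 and -0.60. In the same order, rc_AA997614_s_at gave -0.59 and -0.33, and rc_AI230255_at -0.26 and -0.65. Idi1 was -1.12 against OLT (interval -1.83 to -0.40) and -1.06 against TBD (-1.78 to -0.35). Ebp differed least among the genes well above the array median, by -0.15 against OLT (interval -0.73 to 0.44) and -0.19 against TBD (-0.77 to 0.40).

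Between the substituted compounds TBD and OLT, 0 of 8 enzymes passed in limma, where 1 of all 3104 genes (0.0322%) was lower in TBD. The share of genes higher in TBD was not counted. At an unadjusted p under 0.05 there were 0 of 8, against 2.77% of all genes in either direction. With shares this low, 0 of 8 is not particular to the enzymes. The 8 differences of TBD from OLT had a median of 0.12. Their 95% intervals together spanned -0.78 to 1.71. For Msmo1 the interval was -0.66 to 0.91, for Cyp51 -0.43 to 0.92 and for Lss -0.18 to 0.45.

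**Figure D4:**
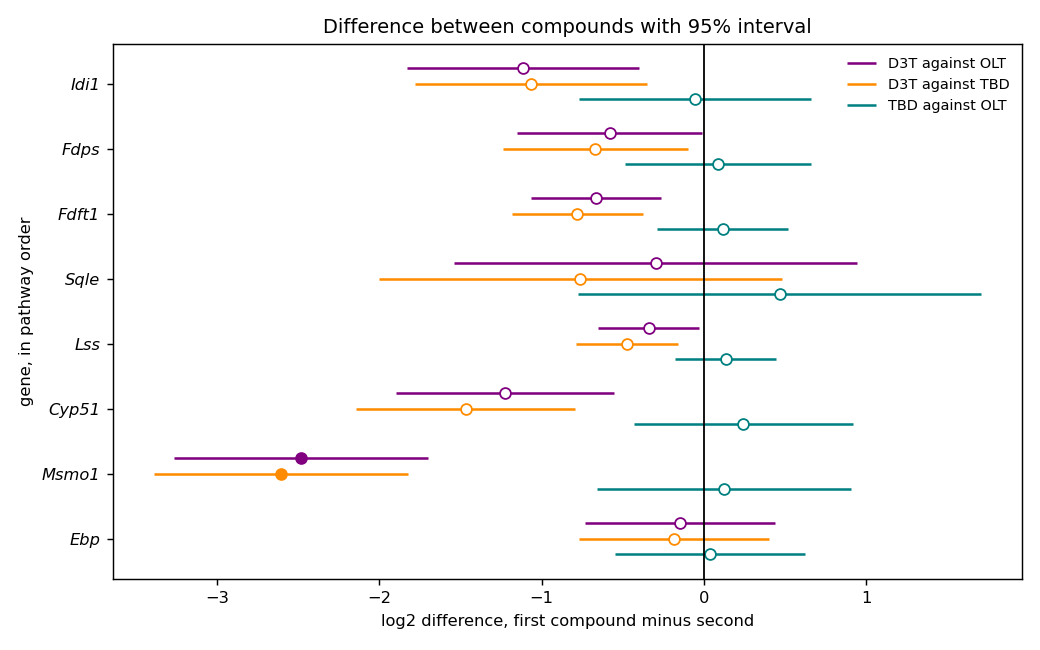
Log2 difference between compounds (x axis, first minus second) for the brightest probe set of each enzyme (y axis), 4 arrays per group. Points are limma estimates, bars 95% intervals, and filled points passed an adjusted p under 0.05. Only the Msmo1 points of D3T against OLT and against TBD are filled, and all TBD against OLT bars cross 0.

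Arrays of a group also differed from each other across several enzymes at once. The mean of the 8 genes, as log2 minus the vehicle mean, was -0.07, 0.38, -0.37 and 0.05 on vehicle arrays and -1.58, -1.86, -1.68 and -1.87 with D3T. It was -0.72, -1.12, -1.35 and -0.38 with OLT and -1.01, -1.02, -0.43 and -0.52 with TBD. Sqle, near the floor on most compound arrays, is 1 of the 8. Its differences of -3.57 with OLT and -3.10 with TBD weigh on these means, and means without it were not computed. D3T arrays were below all others, while the highest OLT array, replicate 4, lay next to the lowest vehicle array, replicate 3. OLT replicate 4 was above its group mean in 7 of 8 genes, and OLT replicates 2 and 3 were below it in 8 of 8. TBD replicate 4, where Sqle read 5.90, was above its group mean in 3 of 8 genes and below it in 5.

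Within groups, the deviations of 2 enzymes from their group means correlated at a median r of 0.42 over the 28 pairs of genes (range -0.20 to 0.80, 16 arrays). Of the 28, 23 (82.1%) were above 0, against 51.3% of all pairs among the 3104 genes. Above 0.5 were 42.9%, against 21.2% of all those pairs. The median over all those pairs was 0.02. Fdps with Fdft1 (0.80) and Cyp51 with Msmo1 (0.78) were highest. The 7 pairs with Sqle had a median of -0.05, and the 21 without it 0.51. The values of a pair share array, animal and normalization, and the correlations are descriptions without a test.

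Regulators of the pathway were measured in part, and 3 of 13 listed genes were tested. Insig1, which retains SREBP and is itself an SREBP target, read 11.45, 11.68, 9.98 and 11.16 on vehicle arrays (L13619_g_at) and 8.17, 8.28, 8.03 and 7.43 with D3T. With OLT it read 9.32, 10.10, 8.95 and 11.23, and with TBD 10.35, 10.11, 12.19 and 9.06. On this probe set all D3T arrays were below all arrays of the other groups, and OLT and TBD overlapped vehicle. The differences from vehicle were -3.09 ± 0.60 with D3T (adjusted p = 0.00257), -1.17 with OLT (adjusted p = 0.27) and -0.64 with TBD (adjusted p = 0.671). D3T differed from OLT by -1.92 (adjusted p = 0.169) and from TBD by -2.45 (adjusted p = 0.0957). On the dimmer L13619_at, D3T was lower than vehicle (-2.48, adjusted p = 0.0235), and OLT (-0.79) and TBD (-0.24) did not pass. There TBD replicate 4, at 6.63, lay within the D3T range of 5.85 to 6.78.

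Srebf1, the SREBP gene linked more to fatty acid than to sterol synthesis, went the other way. On L16995_at it read 4.31, 3.36, 3.56 and 4.45 on vehicle arrays and 7.06, 6.42, 5.53 and 6.32 with D3T. It read 5.20, 5.67, 4.12 and 6.19 with OLT and 7.10, 7.08, 7.00 and 6.24 with TBD. All D3T and TBD arrays were above vehicle, and OLT replicate 3 lay within the vehicle range. The rises were 2.41 ± 0.41 with D3T (adjusted p = 0.00112), 2.93 with TBD (adjusted p = 0.000421) and 1.37 with OLT (adjusted p = 0.0459). The OLT rise did not pass after a further quantile normalization (adjusted p = 0.0588) or centring (adjusted p = 0.076), nor without OLT replicate 1, 2 or 4 or vehicle replicate 2 or 3 (adjusted p of 0.0715 to 0.142). Of 6 tested genes of fatty acid synthesis, among them Fasn, Acly and Scd, 0 passed with any compound by limma on its brightest probe set. There Fasn differed by 1.96 ± 1.02 with D3T (no overlap with vehicle), 0.73 with OLT and 1.85 with TBD. Its dimmer X13527cds_s_at gave 2.84 ± 0.96 with D3T (adjusted p = 0.0547, no overlap), 1.04 with OLT and 2.53 with TBD. These wide errors leave a rise of Fasn undecided. In the same order, Acly differed by 0.31, 0.31 and 1.35, Scd by -0.07, -0.91 and -0.45, and Elovl5 by -0.34, -0.07 and -0.26. Me1, malic enzyme, which supplies NADPH, was higher with all 3 compounds on 2 dimmer probe sets, singled out after their values were seen. These were M26594_at (1.48 with D3T, 1.15 with OLT and 1.31 with TBD) and rc_AI008020_at (1.97, 1.81 and 2.52). Its brightest probe set gave 0.96, 0.80 and 1.00 and passed with D3T without D3T replicate 2 or vehicle replicate 1 (adjusted p = 0.0469 and 0.0488) and with TBD without TBD replicate 4 (1.42, adjusted p = 0.000684). Mbtps2, a protease that releases SREBP, lay below the array median on all 16 arrays.

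**Figure D5:**
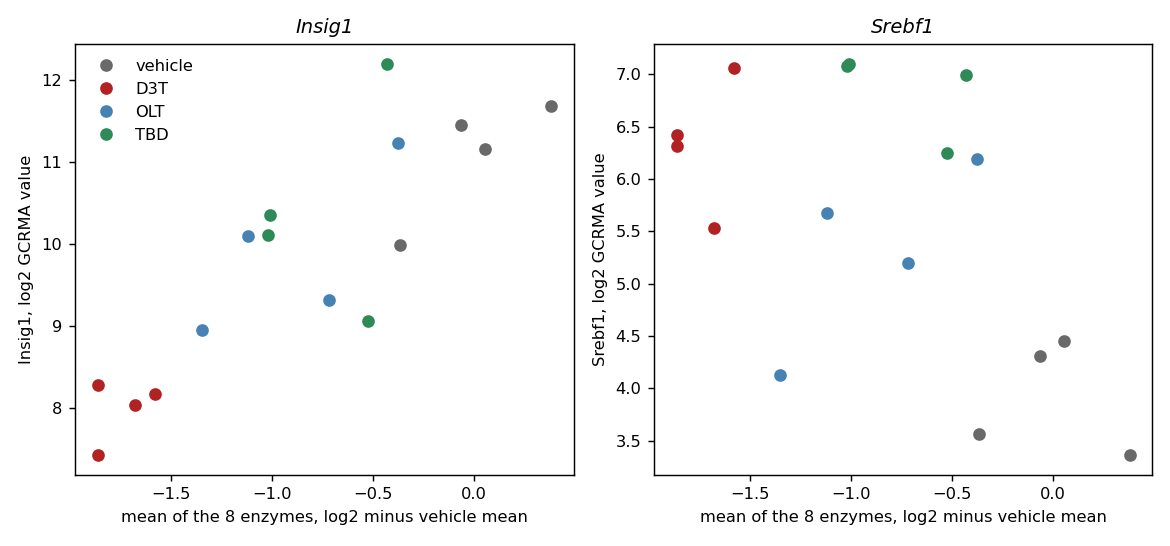
Log2 value of Insig1 (left) and Srebf1 (right) on the y axes against the mean of the 8 enzymes as log2 minus the vehicle mean (x axes), 1 point per array, coloured by group. D3T arrays are lowest for the enzymes and for Insig1 on L13619_g_at, while for Srebf1 the D3T and TBD arrays lie above all vehicle arrays. Sqle, near the floor on most compound arrays, is among the 8 enzymes.

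In the main fit over all 16 arrays, the other enzymes of the same pathway did not pass with any compound. Of 12 listed genes, 7 had a probe set and 6 were tested, and 0 of the 6 passed by limma, with median differences of -0.12 with D3T, -0.02 with OLT and -0.03 with TBD. Nsdhl, which follows Msmo1 in methyl removal, was -0.72 with D3T (adjusted p = 0.0563) without overlap. It passed without D3T replicate 1 (-0.85, adjusted p = 0.0457), with array weights (-0.52, adjusted p = 0.00765) and with a filter at the array median (adjusted p = 0.0491). Acat2, which starts the pathway, was -1.74 with D3T (adjusted p = 0.189) without overlap, and passed with array weights (-1.07, adjusted p = 0.0291). Dhcr7, which makes cholesterol in the last step, was -0.20 with D3T (adjusted p = 0.753), 0.98 with OLT (adjusted p = 0.113) and 1.03 with TBD (adjusted p = 0.0871). The TBD difference of Dhcr7 passed without TBD replicate 4 (1.26, adjusted p = 0.037) and with array weights (1.22, adjusted p = 0.00609). Mvk, Lbr and Hsd17b7 differed from vehicle by no more than 0.20 with D3T. Hsd17b7 lay below the array median on all 16 arrays. Mvk and Lbr were dim as well, with vehicle means of 3.83 and 4.01 beside array medians of 3.27 to 3.58. A fall in these dim genes could hardly be seen, and they enter the median differences given above.

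The partners and outlets of the pathway changed in part. Por, the reductase that gives electrons to Cyp51 and Sqle, was lower with each compound without overlap on its brightest probe set. The falls were 2.38-fold with D3T (-1.25 ± 0.28, adjusted p = 0.00675), 2.86-fold with OLT and 3.14-fold with TBD. On E01524cds_s_at they were larger (-1.96, -2.36 and -2.66), and all passed. On rc_AI137856_s_at D3T did not pass (-1.22, adjusted p = 0.179), while OLT (-2.16) and TBD (-2.15) did. The 3 companions of Por in the list of electron donors did not pass on their brightest probe sets. Cyb5r3, a reductase of cytochrome b5, was higher with D3T on the dimmer J03867_s_at (0.58, adjusted p = 0.0249), singled out after its value was seen. On its brightest, Cyb5r3 was 0.64 with D3T (adjusted p = 0.0873), and with TBD it passed without TBD replicate 4 (0.73, adjusted p = 0.0225). Rabggtb, a subunit of the enzyme that attaches geranylgeranyl groups to Rab proteins, was lower by -1.07 with D3T, -1.32 with OLT and -1.21 with TBD, and was 1 of 3 tested genes of the non-sterol branches. Among all 3104 genes tested, 13.1% were lower with D3T, 8.92% lower and 2.61% higher with OLT, and 10.0% lower with TBD. Of 11 tested genes of bile acid synthesis, the main route of cholesterol removal, 4 were lower with D3T, 2 lower and 1 higher with OLT and 4 lower with TBD. Fgfr4, the receptor through which the gut restrains bile acid synthesis, was among them, at -1.76 with D3T, -1.23 with OLT and -1.24 with TBD. Of 8 tested genes of efflux and lipoprotein handling, Apoe, a lipoprotein ligand, was higher with all 3 (0.64 ± 0.09 with D3T, 0.33 with OLT, 0.40 with TBD). With OLT it did not pass without OLT replicate 2 or 4 or vehicle replicate 2 (adjusted p of 0.0574 to 0.0644). Lipc, hepatic lipase, was lower with all 3 (-0.83, -0.87 and -0.73).

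Outside the enzymes, the probe sets whose pattern over the 16 arrays was most like the mean of the 8 (z-scored per gene) were 2 of Canx, a chaperone of the endoplasmic reticulum, each with a Pearson r of 0.92. Insig1 followed at 0.91, a further probe set of Canx at 0.90, then Igfbp3 at 0.89, Prrc2c at 0.89, Ctsc at 0.89, Ifitm3 at 0.89, Rheb at 0.89 and Mapk6 at 0.89. The lowest r were those of Ptms (-0.85), Tmem205 (-0.85), Igf2 (-0.85), Vom1r97 (-0.85) and Prp2l1 (-0.85). These were selected as extremes over all tested probe sets, the arrays share their groups, and the r values carry no test. Canx on rc_AI010725_at had means of 9.26 with vehicle, 7.76 with D3T, 8.64 with OLT and 8.71 with TBD.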

How the data were processed

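Log2 expression values of 16 arrays hybridised in 1 colour were deposited by the authors as a single table. The submitters' processing notes name GCRMA, whose version the sources used here do not give. GCRMA compresses values near background, so differences of dim probe sets such as that of Sqle depend on its background model. The values were used as they stand. Scan dates were not used, so such batches could not be tested.

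Genes were named from the platform annotation (7006 probe sets with 1 symbol, 308 with several, 1426 with none; 6985 matched by Entrez ID to RefSeq). Group means were fitted over all 16 arrays with limma 3.58.1 in R 4.3.3 (residual df 12, prior df 2.41). Tests were two-sided, with Benjamini-Hochberg adjustment over 5323 probe sets. The fit was tested on simulated data. Differences are ± SE and group values mean ± SD, n = 4.

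All probe sets of the enzymes were named, any gene of the lists of further pathway enzymes and of SREBP regulators, and of other lists up to 3 genes with the largest differences among those called. Some genes not called on their brightest probe set were named beyond this rule. They were Cyb5r3, genes of fatty acid synthesis and dim cell type markers. Members, lists and tests were chosen with earlier results of these data known. Alternatives were other filters, variance priors, scalings, array weights, a block and arrays left out. Figures used matplotlib 3.10.9.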

Additional observations from a re-analysis of the deposited data

Results flagged for a closer look

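In 12 of 144 groups of 4 arrays, 1 array lay far from the other 3, and chance gives about 1 in 20. For Sqle, OLT replicate 1 was highest at 3.69, the others being 3.02 to 3.12, and TBD replicate 4 was highest at 5.90, the others being 2.90 to 3.00. For Lss on D45252_s_at, vehicle replicate 3 was lowest at 6.14 (others 6.65 to 6.74) and OLT replicate 4 highest at 6.08 (others 5.82 to 5.84). For Lss on E12275cds_s_at, TBD replicate 3 was lowest at 4.26 (others 4.43 to 4.46). For Cyp51 on rc_AA997614_s_at, vehicle replicate 4 was highest at 6.36 (others 5.00 to 5.18). For Msmo1, D3T replicate 2 was lowest on E12625cds_at at 4.63 (others 5.88 to 6.02), and TBD replicate 3 highest on rc_AI172293_at at 8.87 (others 8.02 to 8.15). For Srebf1, TBD replicate 4 was lowest at 6.24 (others 7.00 to 7.10). For Rabggtb, OLT replicate 1 was highest at 7.84 (others 6.69 to 6.81). For Me1 on rc_AI171506_g_at, TBD replicate 4 was lowest at 9.94 (others 11.51 to 11.66). For Lipc, vehicle replicate 4 was highest at 11.75 (others 11.48 to 11.51). OLT replicate 1 and TBD replicate 4, the arrays that stood apart over all probe sets, account for 5 of the 12.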

How the results depend on the processing

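The count lower with D3T (7) was 7 under each alternative run except 8 when probe sets of a gene were averaged and 5 at an adjusted p under 0.01. The count lower with OLT (3) was 2 to 5 when single arrays were left out, 5 without OLT replicate 4. It was 2 after quantile normalization, with centred medians, with the block and at an adjusted p under 0.01. The count lower with TBD (4) was 1 with centred medians, 1 with only the 8 arrays compared, 1 at an adjusted p under 0.01, 2 without a filter and 2 after quantile normalization, and 1 to 4 when single arrays were left out. D3T against OLT (1) gave 1 to 2 when single arrays were left out. D3T against TBD (1) gave 2 with a filter at the array median, with a floor, with an intensity trend and after quantile normalization, 3 with array weights, whose fit gave a convergence warning, and 1 to 2 when single arrays were left out. TBD against OLT gave 0 throughout. The causes were not tested.

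Same-numbered arrays did not deviate together (r of -0.52 to 0.32 over 24 pairs, 8 over 0.1; 5 of 16 arrays correlated best with their own number), so the numbers were not taken as pairs. With the replicate number as a block, the count lower with TBD was 2. The calls of Idi1 and Ebp with TBD and of Ebp and Apoe with OLT were lost. No other call changed among those examined, which were on the brightest probe sets of the enzymes and of some further genes. Calls on dimmer probe sets were not examined with the block.

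Of 504 values of single enzymes against vehicle, 424 kept direction and call, 61 lost the call, 8 gained it and 11 changed sign; between compounds 476 of 504 kept both, 8 gained a call and 20 changed sign. The values that changed sign were uncalled except Fdft1 with OLT. Fdft1 was -0.029 with OLT by the mean of its probe sets, and with D3T 0.12 with array weights, 0.22 after quantile normalization and -0.085 to 0.10 with single arrays left out. Cyp51 with OLT was 0.038 after quantile normalization and -0.28 to 0.22 with single arrays left out, and with TBD -0.059 by the mean of its probe sets and -0.087 to 0.34 with single arrays left out. For TBD against OLT, leaving out single arrays gave -0.34 to 0.19 for Idi1, -0.12 to 0.32 for Fdps, -0.032 to 0.32 for Fdft1, -0.27 to 0.73 for Sqle, -0.038 to 0.47 for Cyp51, -0.10 to 0.46 for Msmo1 and -0.25 to 0.19 for Ebp. Sqle gave -0.11 there without both arrays that stand apart, chosen after seeing the data, and Msmo1 -0.18 by the mean of its probe sets. Ebp was 0.032 for D3T against OLT with array weights and -0.36 to 0.11 for D3T against TBD with single arrays left out. With TBD, Insig1 was 0.19 with array weights and Nsdhl 0.058 without the arrays that stand apart (-0.30 to 0.058 with single arrays left out). Dhcr7 with D3T was 0.021 after quantile normalization and -0.47 to 0.18 with single arrays left out. Signal near background limits Sqle, Lss on E12275cds_s_at and Idi1 on rc_AI045395_at.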
